A study of Mus musculus with 5 samples.

Results

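The genes described here make, break down and sense prostaglandins. They were chosen by symbol, and all 10 were found among the 21590 genes of each of the authors' 4 comparison tables. The 10 comprise both cyclooxygenases (Ptgs1, Ptgs2), the terminal synthases Ptges, Ptgis, Ptgds and Tbxas1, the degrading enzyme Hpgd, and the receptors Ptger2, Ptger4 and Ptgir. RNA came from whole lungs of mice on a shared mixed background of 129S6, C57BL/6 and BALB/c strains, in 5 groups. KO_VILIhigh and KO_VILIlow were Cldn4 knockouts (lacking claudin-4, an epithelial tight junction protein) ventilated for 2 h at 40 cmH2O, a stretch injury called ventilator-induced lung injury (VILI). The study assigned these animals by outcome, to more injury than wild type (KO_VILIhigh) or a comparable amount (KO_VILIlow), so both groups were already sorted by injury. WT_VILI were wild type mice under the same ventilation, KO_noVILI unventilated knockouts and WT_noVILI unventilated wild types. Each group was sampled in duplicate per the design text, and age and sex are not given in the sources used here.

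Cyclooxygenases turn arachidonic acid, freed from membranes by phospholipases, into the unstable intermediate PGH2. Terminal synthases then convert it to PGE2, prostacyclin, thromboxane or PGD2. The lung is a main site where circulating prostaglandins are taken up and then inactivated by hydroxyprostaglandin dehydrogenase, the product of Hpgd. The EP2, EP4 and IP receptors, encoded by Ptger2, Ptger4 and Ptgir, signal by raising cyclic AMP in vascular, epithelial and immune cells.

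The files give fold changes, mean abundance and p-values per comparison and no value per library, so the spread between replicates and the depth of each library are unknown. A level in CPM (a count scaled by library size) below is a group value rebuilt from a fold change and mean abundance. Approximate standard errors were worked back from each fold change and its p, taking the test statistic as normal. Called means an adjusted p of 0.05 or less. Cldn4 stood at 0.122 CPM in KO_VILIhigh, 0.0212 CPM in KO_VILIlow and 0.14 CPM in KO_noVILI, against 140 CPM in WT_VILI and 8.98 CPM in WT_noVILI. The female transcript Xist lay between 2.56 and 6.13 CPM in the 3 ventilated groups, against 505 and 890 CPM in KO_noVILI and WT_noVILI, so ventilation and sex cannot be told apart in any comparison of ventilated with unventilated lungs. The marker lists of alveolar type 1, alveolar type 2, club and endothelial cells had 0 markers under 0.5 CPM in any group. In whole lung, fewer cells of a type and less RNA per cell cannot be told apart.

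Ptgs2, Ptges and Hpgd were the members called in KO_VILIhigh against WT_VILI, and the sequences before their RefSeq start sites (GRCm38.p6) are shown because these genes differed together there. The authors aligned to another build, mm9, so these coordinates cannot be set beside theirs. Capitals mark letters that match a searched motif on either strand. The motif TTGCGCAA is a palindrome that C/EBP factors bind. The core of the cyclic AMP response element was searched as TGACG. For the E-box the letters were CACGTG. The usual GC box is written GGGCGG. For the promoter element called the TATA box the search used TATAAA. One form of the NF-kB motif was searched too.
Ptgs2 (chr1:150099781-150100030, + strand): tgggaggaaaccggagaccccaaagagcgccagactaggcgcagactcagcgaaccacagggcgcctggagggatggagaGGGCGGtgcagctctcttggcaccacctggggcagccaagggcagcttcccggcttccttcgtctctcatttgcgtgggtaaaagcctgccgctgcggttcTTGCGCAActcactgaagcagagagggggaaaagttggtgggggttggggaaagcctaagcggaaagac
Ptgs2, first 30 bases from the start (chr1:150100031-150100060, + strand): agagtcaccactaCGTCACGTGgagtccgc
Ptges (chr2:30903298-30903547, - strand): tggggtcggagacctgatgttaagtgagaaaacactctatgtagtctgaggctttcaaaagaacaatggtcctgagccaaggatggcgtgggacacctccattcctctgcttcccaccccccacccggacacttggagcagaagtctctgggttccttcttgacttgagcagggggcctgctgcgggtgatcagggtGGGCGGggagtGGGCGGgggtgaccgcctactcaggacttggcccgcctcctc
Hpgd (chr8:56294302-56294551, + strand): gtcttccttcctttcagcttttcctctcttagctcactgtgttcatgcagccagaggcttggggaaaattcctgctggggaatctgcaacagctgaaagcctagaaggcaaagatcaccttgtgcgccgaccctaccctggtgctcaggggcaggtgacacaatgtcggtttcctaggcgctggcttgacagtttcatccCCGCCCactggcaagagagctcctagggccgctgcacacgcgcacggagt
Hpgd, first 30 bases from the start (chr8:56294552-56294581, + strand): gggcTATAAAagctgctgcggcgtccagac

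Windows of 300 bases were searched, of which 250 lie before the start, for the 9 members with an entry. TTGCGCAA occurred in 1 of them, Ptgs2, at positions -69 to -62, and in 0.183% of 32851 mouse windows. The same window held TGACG on the minus strand at 14 to 18, sharing 2 bases with CACGTG at 17 to 22, counting the start base as 1. Of all windows 20.8% held TGACG and 7.15% CACGTG, and Ptgs2 was the single member with either. GGGCGG occurred in 5 of 9 member windows and in 35.7% of all, TATAAA in 2 of 9 and 13.6%, and the NF-kB motif in 0 of 9 and 1.2%. Ptges, Ptgs2 and Hpgd had GGGCGG in common, a motif that Ptgir and Ptger4 also held. A match is a run of letters in this window and shows no binding.

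Ptgs2, the inducible cyclooxygenase, had the widest range of group levels among the members with at least 1 CPM. It stood at 570 CPM in KO_VILIhigh, 288 CPM in KO_VILIlow, 313 CPM in WT_VILI, 23.1 CPM in KO_noVILI and 32.7 CPM in WT_noVILI. All 3 ventilated groups were high and both unventilated groups low. Wild type lungs showed a log2 fold change of 3.26 (approximate SE 0.17) with ventilation in the authors' deposited table, adjusted p = 2.1e-77. Between ventilated groups, KO_VILIhigh was higher than WT_VILI by 0.82 (approximate SE 0.21, adjusted p = 0.0068), and KO_VILIlow stood at -0.18 (approximate SE 0.21, adjusted p = 1), both in the authors' deposited tables. The KO_VILIhigh call ended under Bonferroni adjustment and under a 2-fold minimum. Both comparisons share the WT_VILI libraries.

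The constitutive cyclooxygenase Ptgs1 varied little by comparison, at 80.3 CPM in KO_VILIhigh, 95.2 CPM in KO_VILIlow, 94.8 CPM in WT_VILI, 93.4 CPM in KO_noVILI and 77.1 CPM in WT_noVILI. Its deposited log2 fold changes ran from -0.22 to 0.31 over the authors' deposited tables and none was called. Per kilobase of the longest coding transcript in GENCODE, Ptgs2 stood at 4.57 times the level of Ptgs1 in KO_VILIhigh, 1.95 times in KO_VILIlow, 2.13 times in WT_VILI, 0.159 times in KO_noVILI and 0.273 times in WT_noVILI. Ptgs2 was thus the more abundant cyclooxygenase transcript in the ventilated groups and the less abundant in the unventilated ones.

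**Figure D1:**
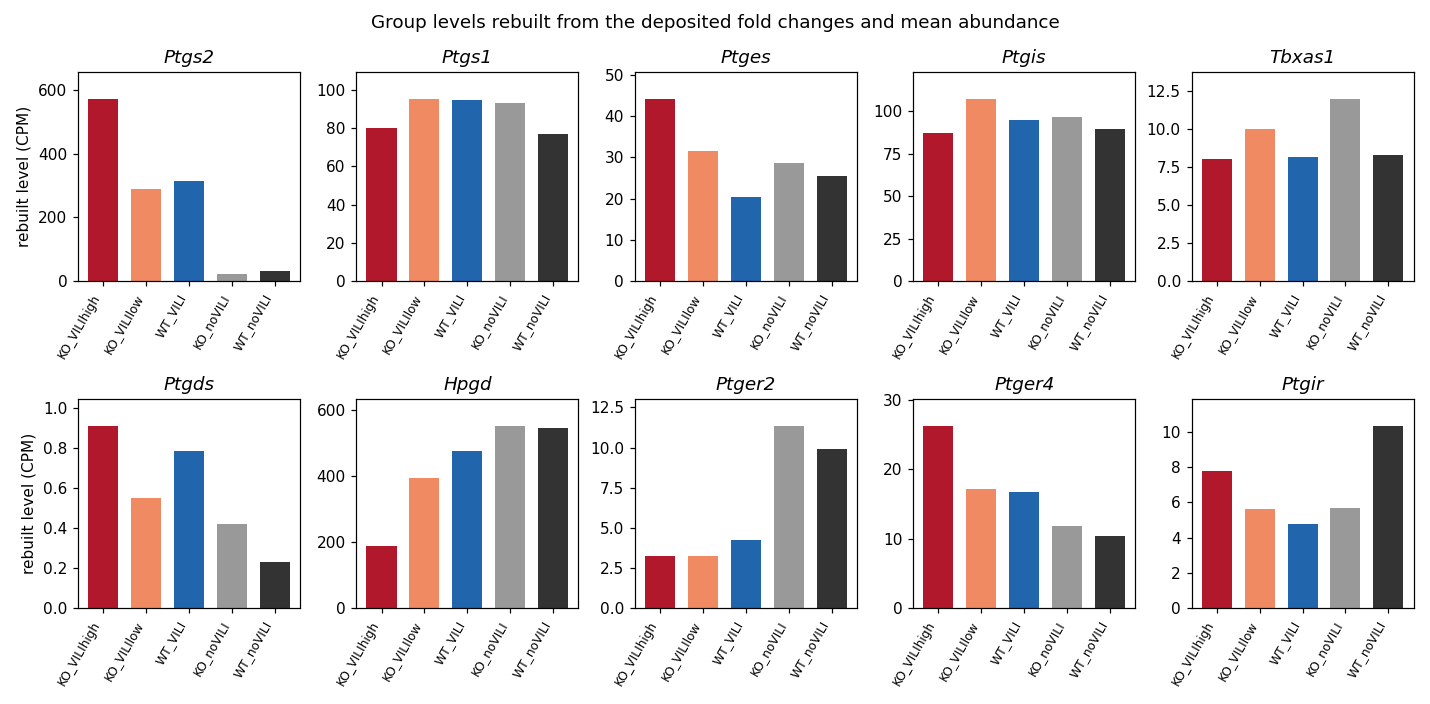
Rebuilt level in CPM (vertical axis, from 0, a separate scale for each gene) of the 10 genes in the 5 groups. Bars are single group values rebuilt from the deposited tables and carry no error; Ptgs2 was tallest in KO_VILIhigh at 570 CPM, where Hpgd was shortest at 190 CPM.

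Ptges encodes the inducible microsomal PGE2 synthase, which works downstream of cyclooxygenase. Its level was 44.1 CPM in KO_VILIhigh, 31.6 CPM in KO_VILIlow, 20.3 CPM in WT_VILI, 28.7 CPM in KO_noVILI and 25.6 CPM in WT_noVILI, lowest in ventilated wild type and highest in the most injured knockouts. Unlike for Ptgs2, no rise with ventilation was called in wild type, where the log2 fold change was -0.34 (approximate SE 0.20, adjusted p = 0.395, authors' deposited table). Against WT_VILI it was higher in KO_VILIhigh by 1.26 (approximate SE 0.25, adjusted p = 0.000113), with 0.78 in KO_VILIlow (approximate SE 0.27, adjusted p = 0.204), in the authors' deposited tables. For the second of these the unadjusted deposited p was 0.00346.

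Of the other terminal synthases none was called in any table. Ptgis, the prostacyclin synthase of vessel walls, lay between 87.2 CPM (KO_VILIhigh) and 107 CPM (KO_VILIlow), with deposited log2 fold changes from -0.10 to 0.20 over the authors' deposited tables. The largest approximate SE of those 4 values was 0.24. Tbxas1, the thromboxane synthase of platelets and macrophages, stood at 8.04 CPM in KO_VILIhigh, 10.01 CPM in KO_VILIlow, 8.14 CPM in WT_VILI, 11.9 CPM in KO_noVILI and 8.31 CPM in WT_noVILI. Its largest deposited difference was 0.56 in KO_noVILI against WT_noVILI (unadjusted p = 0.0162, adjusted p = 0.219, authors' deposited table). Ptgds, a PGD2 synthase best known from brain, was under 1 CPM in every group and too low to compare.

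Hpgd, the first enzyme of prostaglandin breakdown, was lower in KO_VILIhigh than in WT_VILI. Its level was 190 CPM in KO_VILIhigh, 395 CPM in KO_VILIlow, 477 CPM in WT_VILI, 551 CPM in KO_noVILI and 548 CPM in WT_noVILI. The deposited log2 fold change against WT_VILI was -1.40 in KO_VILIhigh (approximate SE 0.22, adjusted p = 1.54e-07), the smallest p of any member there, and -0.35 in KO_VILIlow (approximate SE 0.20, adjusted p = 1, authors' deposited tables). Ventilation of wild type gave -0.20 (adjusted p = 0.696) and genotype without ventilation 0.01 (adjusted p = 1) in the authors' deposited tables. The level of Ptges per kilobase was 0.107 times that of Hpgd in KO_VILIhigh, 0.0369 times in KO_VILIlow, 0.0196 times in WT_VILI, 0.024 times in KO_noVILI and 0.0216 times in WT_noVILI. One synthase transcript was thus highest, and the breakdown transcript lowest, in the same group.

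Among the receptors, the 2 that were called were lower in ventilated wild type lungs. Ptger2 (EP2) stood at 3.25 CPM in KO_VILIhigh, 3.27 CPM in KO_VILIlow, 4.27 CPM in WT_VILI, 11.3 CPM in KO_noVILI and 9.91 CPM in WT_noVILI, low in all ventilated groups. Its log2 fold change in WT_VILI against WT_noVILI was -1.21 (approximate SE 0.35, adjusted p = 0.00968, authors' deposited table). Ptgir, the prostacyclin receptor, stood at 7.75 CPM in KO_VILIhigh, 5.62 CPM in KO_VILIlow, 4.75 CPM in WT_VILI, 5.65 CPM in KO_noVILI and 10.3 CPM in WT_noVILI. It fell by 1.12 on the log2 scale in WT_VILI against WT_noVILI (approximate SE 0.34, adjusted p = 0.0158, authors' deposited table). For these low transcripts the call in wild type was lost under Bonferroni adjustment.

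Ptger4 (EP4) stood at 26.2 CPM in KO_VILIhigh, 17.2 CPM in KO_VILIlow, 16.8 CPM in WT_VILI, 11.9 CPM in KO_noVILI and 10.4 CPM in WT_noVILI, the reverse order to Ptger2 between ventilated and unventilated groups. No table called it. The deposited log2 fold change was 0.69 with ventilation of wild type (approximate SE 0.26, unadjusted p = 0.0083, adjusted p = 0.0786) and 0.77 in KO_VILIhigh against WT_VILI (approximate SE 0.32, unadjusted p = 0.0163, adjusted p = 0.335), from the authors' deposited tables. Ptgir had 0.90 in KO_VILIhigh against WT_VILI (approximate SE 0.39, adjusted p = 0.386) and Ptger2 had -0.30 (approximate SE 0.55, adjusted p = 1) in the same deposited table of the authors.

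**Figure D2:**
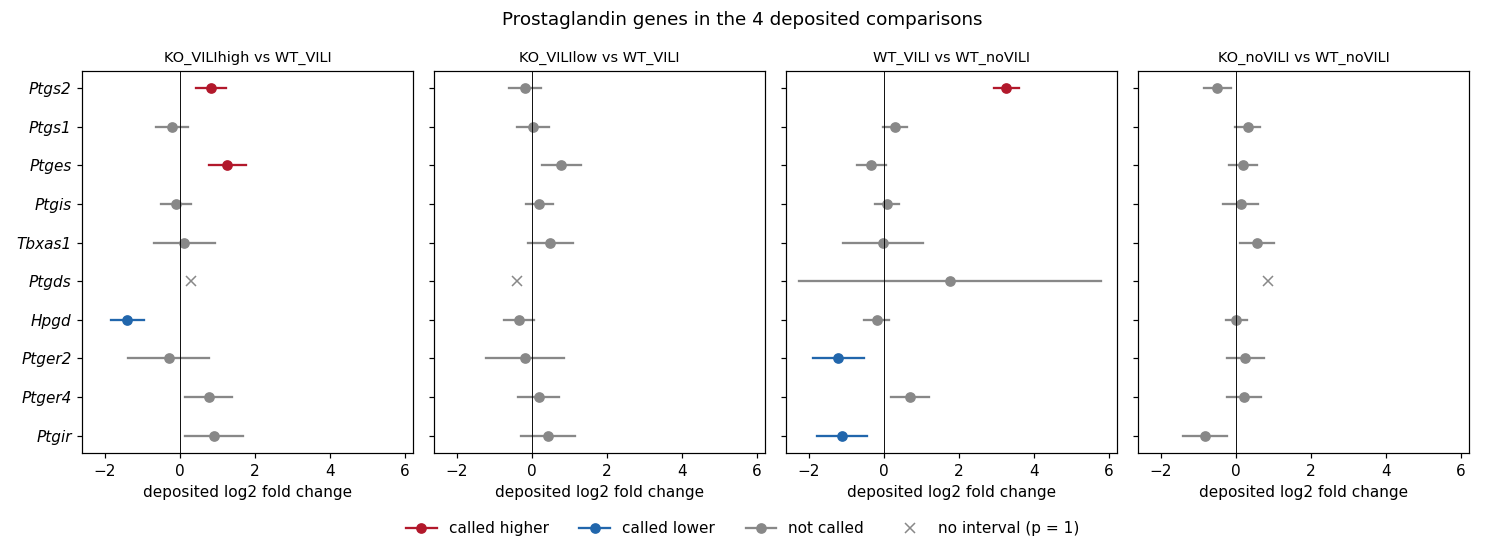
Deposited log2 fold changes (horizontal axis) of the 10 genes in the authors' 4 comparisons, with approximate 95% intervals worked out from the deposited p. Red and blue points are called higher and lower; the KO_VILIhigh panel has Ptgs2 at 0.82, Ptges at 1.26 and Hpgd at -1.40, and the KO_VILIlow panel has no coloured point. Crosses have a deposited p of 1 and no interval.

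Counted over the list, KO_VILIhigh against WT_VILI had 2 members called higher and 1 lower of 10, where 1.56% of all genes were called in that table (1.13% higher and 0.435% lower). In WT_VILI against WT_noVILI the counts were 1 higher and 2 lower, beside 9.09% of all genes (4.85% higher and 4.23% lower). The authors' edgeR test called 0 of 10 in KO_VILIlow against WT_VILI (0.973% of all genes called, 0.676% higher and 0.296% lower) and 0 of 10 in KO_noVILI against WT_noVILI (3.36%, of which 1.45% higher and 1.92% lower). At an unadjusted deposited p under 0.05 these 2 comparisons had 1 member (Ptges) and 3 members (Ptgs2, Tbxas1 and Ptgir). The share of all genes at an unadjusted p under 0.05 was not computed, here or below, so such counts have no background. In KO_noVILI against WT_noVILI, Ptgs2 stood at -0.50 (approximate SE 0.19, adjusted p = 0.136) and Ptgir at -0.82 (approximate SE 0.30, adjusted p = 0.125) in the authors' deposited table. The median log2 fold change of the 9 members other than Ptgds was 0.11 in KO_VILIhigh, 0.18 in KO_VILIlow, both against WT_VILI, -0.03 in WT_VILI and 0.19 in KO_noVILI, both against WT_noVILI. The corresponding medians over all genes with a mean of at least 1 on the log2 CPM scale lay between -0.02 and 0.01.

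The 2 injury grades of the knockout were compared by subtracting the deposited fold changes, in which WT_VILI cancels. Ptgs2 was at 1.00 in KO_VILIhigh against KO_VILIlow (approximate SE 0.30, 95% interval 0.42 to 1.59) and Hpgd at -1.05 (approximate SE 0.30, interval -1.64 to -0.46). Neither passed adjustment over all genes (adjusted p = 0.219 and 0.179 from summed variances and a normal test, Benjamini-Hochberg). This test called 0 of 9 members tested and 0.165% of all genes (0.15% higher and 0.0158% lower). At an unadjusted p under 0.05 there were 2 members, with no share of all genes computed. The test still counts the variance of the cancelled WT_VILI libraries. An alternative chosen after seeing the data left that variance out, here and below. It halved the variance of each table used, which assumes that both groups of a table contribute equally, and this was not checked. With it 2 members were called by the normal test, Ptgs2 (adjusted p = 0.000543) and Hpgd (adjusted p = 0.000309), beside 1.05% of all genes. Ptges was at 0.48 (interval -0.24 to 1.20) and Ptger4 at 0.59 (interval -0.24 to 1.43), so these data do not separate the injury grades for either gene.

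Ventilated knockouts were likewise set against unventilated knockouts. Ptgs2 was at 4.58 in KO_VILIhigh (approximate SE 0.33, adjusted p = 9.81e-41) and at 3.58 in KO_VILIlow (approximate SE 0.33, adjusted p = 1.29e-23) in this normal test with Benjamini-Hochberg adjustment. Hpgd was at -1.61 in KO_VILIhigh (adjusted p = 2.23e-05) and at -0.56 in KO_VILIlow (adjusted p = 0.53). Ptger2 was at -1.77 and -1.66 (adjusted p = 0.179 and 0.239) and Ptger4 at 1.24 and 0.65 (adjusted p = 0.15 and 0.828) in the same order. The call counts were 2 of 9 tested in KO_VILIhigh, beside 3.88% of all genes (2.45% higher, 1.42% lower), and 1 of 9 in KO_VILIlow, beside 3.53% (2.22% higher, 1.31% lower). Leaving out the variance of the cancelled groups gave 5 called members in KO_VILIhigh, beside 16.8% of all genes, and 3 in KO_VILIlow, beside 14.7%. The 5 were Ptgs2, Ptges and Ptger4 (higher) and Hpgd and Ptger2 (lower), and the 3 were Ptgs2 (higher), Hpgd and Ptger2 (lower).

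Whether the genotype difference itself changed with ventilation was asked by subtracting the unventilated comparison from each ventilated one. These share no library, so no variance cancels. For KO_VILIhigh the change was 1.32 for Ptgs2 (approximate SE 0.28, adjusted p = 0.000441), 1.07 for Ptges (approximate SE 0.32, adjusted p = 0.0465), -1.42 for Hpgd (approximate SE 0.27, adjusted p = 3.28e-05) and 1.73 for Ptgir (approximate SE 0.50, adjusted p = 0.0366). These 4 of 9 members stood beside 1.57% of all genes called (1.19% higher, 0.383% lower) by this normal test with Benjamini-Hochberg adjustment. For KO_VILIlow 0 of 9 were called (1.17% of all genes, 0.932% higher and 0.237% lower), with Ptgir at 1.25 (approximate SE 0.47, adjusted p = 0.343) the single member with an unadjusted p under 0.05. The Ptgir value combines -0.82 between the unventilated groups with 0.90 between the ventilated ones, neither of which was called alone in the authors' deposited tables. Under Bonferroni adjustment the calls of Ptges and Ptgir ended.

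**Figure D3:**
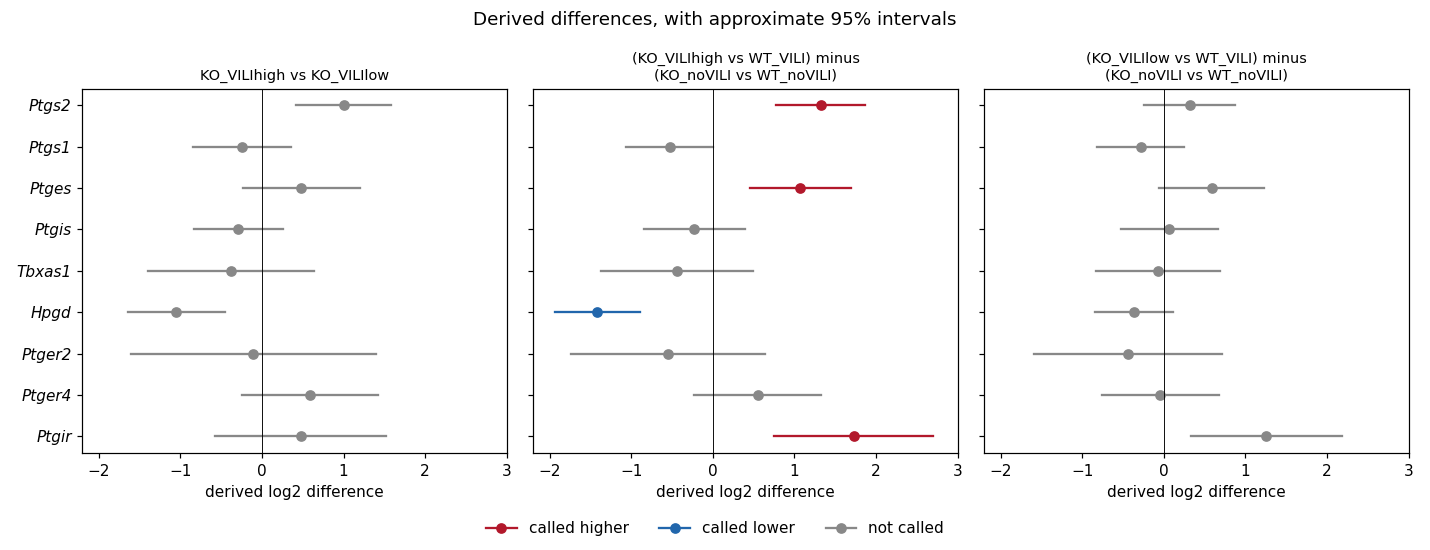
Derived log2 differences (horizontal axis) of the 9 genes tested, with approximate 95% intervals. Ptgds, under the abundance minimum of the derived test, is left out. The left panel sets KO_VILIhigh against KO_VILIlow, and the other panels give each ventilated genotype difference minus the unventilated one; coloured points are called, 4 of them in the middle panel and 0 in the others.

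Per kilobase, and with no error available for the order, Hpgd was the most abundant member in WT_noVILI at 325 CPM, followed by Ptgis at 42.6 CPM, Ptgs1 at 26.9 CPM, Ptgs2 at 7.33 CPM and Ptges at 7.01 CPM. Tbxas1 (4.17 CPM), Ptger4 (3.15 CPM), Ptgir (3.11 CPM), Ptger2 (2.69 CPM) and Ptgds (0.257 CPM) came after them on the same per-kilobase scale. In KO_VILIhigh, Ptgs2 at 128 CPM per kilobase and Hpgd at 113 CPM per kilobase were the 2 highest.

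Genes with the most similar values were sought by Euclidean distance over the 4 deposited log2 fold changes, among 13305 genes. For Ptgs2 these were Atf3, F3, Krtap17-1, Mmp8 and Slc7a11, at distances from 0.67 to 0.97. Those for Ptges included Ccdc96, Mzb1, Socs1 and Eci3, at 0.13 to 0.18. Those closest to Hpgd were 1700066M21Rik, Pdik1l, Adra1d, Znrd1as and A430033K04Rik, at 0.29 to 0.43. Ptges had closer neighbours than Ptgs2, whose fold changes are larger.

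The remaining pathway was read from lists of phospholipases, other synthases and reductases, transporters and other receptors. Of 18 phospholipase and lipase genes, 1 was called higher and 1 lower in WT_VILI against WT_noVILI by the authors' edgeR test. These were Pla2g12a, a secreted phospholipase (0.97), and Pla2g15, the lysosomal one (-0.93). The shares of all genes there were 4.85% higher and 4.23% lower, so 1 of 18 each way is near these shares. In KO_VILIhigh and in KO_VILIlow against WT_VILI the same test called 0 of 18, with 1 at an unadjusted p under 0.05 in each comparison. Beside them stood 1.56% of all genes called in KO_VILIhigh and 0.973% in KO_VILIlow, and 0 of 18 is near these shares too. Cytosolic phospholipase A2, Pla2g4a, stood at 25.2 CPM in KO_VILIhigh, 19.6 CPM in KO_VILIlow, 20.4 CPM in WT_VILI, 23.7 CPM in KO_noVILI and 24.5 CPM in WT_noVILI. Among 11 other synthases and reductases, Cbr1, a carbonyl reductase that converts PGE2, was lower in WT_VILI than in WT_noVILI (-0.50, authors' deposited table). No other gene of that list was called there, beside the same 4.23% of all genes lower. Of 5 transporters, the exporter Abcc4 was higher in WT_VILI against WT_noVILI (0.77, authors' deposited table), beside 4.85% of all genes. Slco2a1, which carries prostaglandins into cells ahead of Hpgd, was not called in any deposited table of the authors. It stood at 566 CPM in KO_VILIhigh, 766 CPM in KO_VILIlow, 825 CPM in WT_VILI, 761 CPM in KO_noVILI and 649 CPM in WT_noVILI. In KO_VILIhigh against WT_VILI its deposited log2 fold change was -0.60 (approximate SE 0.22, unadjusted p = 0.00727, adjusted p = 0.212, authors' edgeR test).

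Of the 7 other receptor and receptor-associated genes, Ptgfr, the PGF2-alpha receptor, was lower in KO_VILIhigh than in WT_VILI. Its level was 11.0 CPM in KO_VILIhigh, 17.8 CPM in KO_VILIlow, 29.8 CPM in WT_VILI, 23.9 CPM in KO_noVILI and 18.4 CPM in WT_noVILI. The deposited log2 fold change against WT_VILI was -1.36 in KO_VILIhigh (approximate SE 0.28, adjusted p = 0.000277), where 0.435% of all genes were called lower. In KO_VILIlow it was -0.65 (approximate SE 0.23, unadjusted p = 0.00428, adjusted p = 0.232). In WT_VILI against WT_noVILI it was 0.70 (approximate SE 0.21, adjusted p = 0.0131), where 4.85% of all genes were called higher. These values are from the authors' edgeR test. Tbxa2r, the thromboxane receptor, was lower in WT_VILI than in WT_noVILI, at a log2 fold change of -1.02 (adjusted p = 0.0324, authors' deposited table). Of all genes 4.23% were called lower there.

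**Figure D4:**
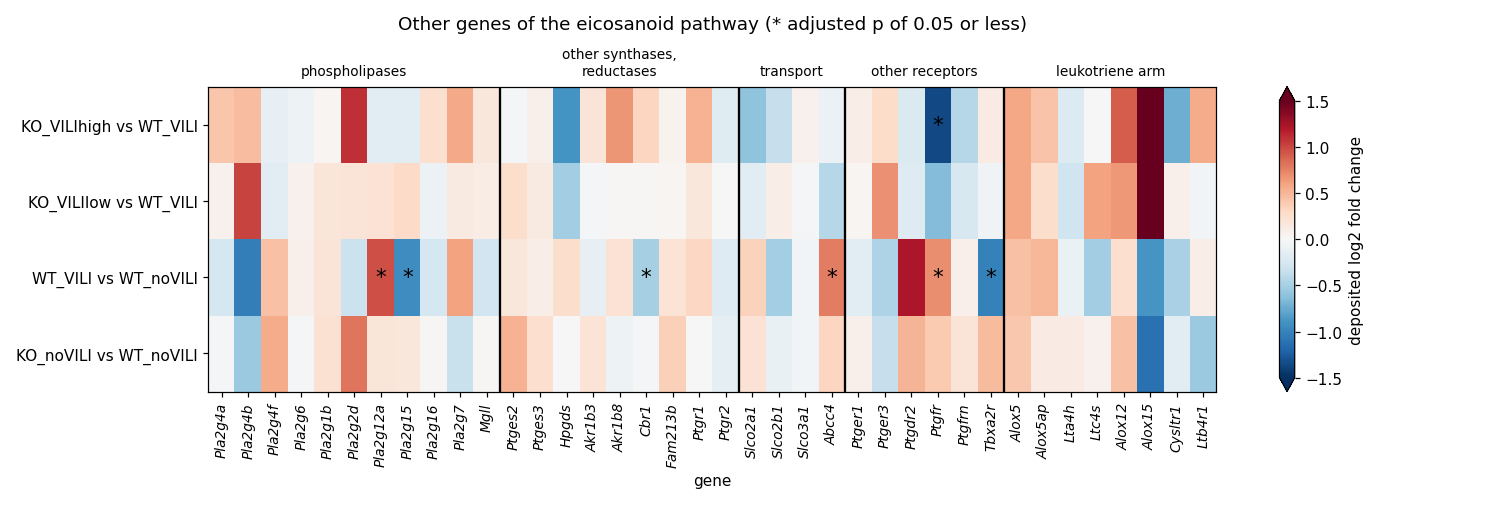
Deposited log2 fold changes (colour, limited to 1.5 either way) of the 38 of 52 other eicosanoid genes with a mean rebuilt level of at least 1 CPM over the groups, in the authors' 4 comparisons (rows). Asterisks mark calls, and in the KO_VILIhigh row Ptgfr at -1.36 carries the only one. The part labelled leukotriene arm also holds the other lipoxygenases Alox12 and Alox15.

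Markers of other cells moved with some of these comparisons. Of all genes, the authors' deposited tables called 1.13% higher and 0.435% lower in KO_VILIhigh against WT_VILI. These shares were 0.676% and 0.296% in KO_VILIlow against WT_VILI, and 4.85% and 4.23% in WT_VILI against WT_noVILI. In KO_noVILI against WT_noVILI they were 1.45% and 1.92%. In the genotype difference with high injury minus that without ventilation 1.19% were higher. The summed level of 9 neutrophil markers was 1088 CPM in KO_VILIhigh, 800 CPM in KO_VILIlow, 606 CPM in WT_VILI, 164 CPM in KO_noVILI and 156 CPM in WT_noVILI. Like Ptgs2 it was high in the 3 ventilated groups and highest in KO_VILIhigh, while within the pairs KO_VILIlow and WT_VILI, and KO_noVILI and WT_noVILI, the order was the opposite of that of Ptgs2. Of these markers 9 of 9 were higher in WT_VILI against WT_noVILI, by the authors' deposited tables. Against WT_VILI, 2 of 9 were higher in KO_VILIhigh and 1 of 9, Ngp at 0.84, in KO_VILIlow. The sum of 8 platelet markers was 63.3 CPM in KO_VILIhigh, 63.5 CPM in KO_VILIlow, 29.9 CPM in WT_VILI, 26.1 CPM in KO_noVILI and 14.9 CPM in WT_noVILI. The rebuilt levels of Tbxas1 had another order, but Tbxas1 was called in no deposited table, so its order is uncertain. Alveolar macrophage markers (8) summed to 554 CPM in KO_VILIhigh, 604 CPM in KO_VILIlow, 408 CPM in WT_VILI, 712 CPM in KO_noVILI and 562 CPM in WT_noVILI. Their 3 highest groups, KO_noVILI, KO_VILIlow and WT_noVILI, were those of the rebuilt Tbxas1 levels in the same order. That order of Tbxas1 is not resolved, with 8.31 CPM in WT_noVILI, 8.14 CPM in WT_VILI and 8.04 CPM in KO_VILIhigh. The lowest group of the macrophage sum, WT_VILI, was also the lowest for Ptges. In KO_VILIhigh against WT_VILI 2 of 8 were higher, Marco (2.05) and Chi3l3 (1.27), in the authors' deposited table. In KO_VILIlow against WT_VILI 1 of 8 was higher, Chi3l3 at 1.36. Mesothelial markers (6) summed to 780 CPM in KO_VILIhigh, 603 CPM in KO_VILIlow, 499 CPM in WT_VILI, 297 CPM in KO_noVILI and 376 CPM in WT_noVILI. In WT_VILI against WT_noVILI 2 of 6 were called higher, Upk1b (1.02) and Krt19 (0.83), in the authors' deposited table. The median of the list there was -0.15, so the sum was higher but the median marker was not. Against KO_noVILI the median was 0.71 in KO_VILIhigh and 0.54 in KO_VILIlow. Of the mesothelial markers 1 of 6 was higher in KO_VILIhigh against WT_VILI, Krt19 at 0.84 in the authors' deposited table. Alveolar type 2 markers (5) summed to 9260 CPM in KO_VILIhigh, 10800 CPM in KO_VILIlow and 10690 CPM in WT_VILI. Unventilated, they summed to 11210 CPM in KO_noVILI and 9131 CPM in WT_noVILI. Hpgd was lowest in KO_VILIhigh, but this sum was lowest in WT_noVILI. In KO_VILIhigh against WT_VILI 1 of 5 was lower in the authors' deposited table. Endothelial markers (7) summed to 3228 CPM in KO_VILIhigh and 3352 CPM in WT_VILI, and alveolar type 1 markers (5) to 3224 and 2808 CPM in the same order, with 0 of 7 and 0 of 5 called by the authors' edgeR test. Smooth muscle markers (6) summed to 972 CPM in KO_VILIhigh, 978 CPM in KO_VILIlow, 718 CPM in WT_VILI, 588 CPM in KO_noVILI and 898 CPM in WT_noVILI, and 4 of 6 were lower in KO_noVILI and 3 of 6 in WT_VILI, both against WT_noVILI. Ptgir was low in both of those groups, but also in KO_VILIlow, where the smooth muscle sum was highest. In the genotype difference with high injury minus that without ventilation, where Ptgir was called, 3 of 6 smooth muscle and 5 of 5 tested cardiac muscle markers were higher. Cardiac muscle markers (6) summed to 699 CPM in KO_VILIhigh, 1027 CPM in KO_VILIlow, 422 CPM in WT_VILI, 251 CPM in KO_noVILI and 645 CPM in WT_noVILI. Both red blood cell markers found (of 4) were called higher in KO_VILIhigh than in WT_VILI, and lower in WT_VILI than in WT_noVILI. They summed to 1192 CPM in KO_VILIhigh, 1335 CPM in KO_VILIlow, 374 CPM in WT_VILI, 2635 CPM in KO_noVILI and 1423 CPM in WT_noVILI. WT_VILI was thus the lowest group. The part of these cell types in the results was not tested.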

How the data were processed

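RNA sequencing of whole lung was summarised by the authors in 4 deposited comparison tables, and no value per library (0 columns) was used. Per the submitters' processing notes, Bowtie 1.1.2, the mm9 build, R 3.0.1 and edgeR were used; the counting method, gene filter and test settings are not given in the sources used here. The deposited fold changes and mean abundance were read as log2 values, per the file headers' edgeR names, which do not state the base. Each deposited p-value and adjusted p comes from the authors' edgeR test. The duplicates are not said to be separate animals, so p-values may measure technical spread only.

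The labels list WT_noVILI under every file, but the rebuilt reference of the KO_VILIlow and KO_VILIhigh tables lay closer to WT_VILI (median absolute deviation 0.0625 and 0.0449 log2) than to WT_noVILI (0.229 and 0.226 log2), over 13305 genes. Both were read against WT_VILI. Levels were rebuilt by splitting the mean CPM according to the fold change, without scaling between tables, whose levels of the same group differed by up to 0.196 log2 for the 9 members other than Ptgds. Derived comparisons used summed variances, a two-sided normal test and Benjamini-Hochberg adjustment over genes whose mean abundance reached 1 on the log2 scale and whose p was usable, and the procedure was tested on simulated data. Members, lists and tests were chosen with earlier results of these data known. Named genes are the members, checks, called list members (up to 4 a list and table), the 5 nearest genes (1 near Ptges is not reported here) and, chosen after seeing values, Pla2g4a, Slco2a1, Alox15 and Alox12. Of 66 other listed genes, 64 were found. RefSeq promoter sequences and GENCODE vM21 lengths came from GRCm38. Alternatives were Bonferroni, other abundance minimums, median centring, a 2-fold minimum and the cancelled variance. Computation used scipy 1.17.1 and pandas 2.3.3 with numpy 2.4.6 under Python 3.11.15, and figures matplotlib 3.10.9.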

Additional observations from a re-analysis of the deposited data

Results flagged for a closer look

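For 4 members the genotype difference in high-injury ventilated lungs differed from that in unventilated lungs by a test of the difference itself (normal test, Benjamini-Hochberg). The change was 1.32 for Ptgs2, 1.07 for Ptges, -1.42 for Hpgd and 1.73 for Ptgir on the log2 scale. The ventilated knockouts had been sorted by injury and the ventilated groups differ from the unventilated ones in Xist, so injury, genotype, ventilation and sex cannot be told apart in these values.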

How the results depend on the processing

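Bonferroni adjustment left 1 member called in WT_VILI against WT_noVILI (Ptgs2) in place of 3, and 2 (Ptgs2 and Hpgd) in place of 4 in the genotype difference with high injury minus that without ventilation. It also ended the call of Ptgs2 in KO_VILIhigh against WT_VILI, as did a 2-fold minimum. Leaving the cancelled groups out of the variance raised the counts to 2 in KO_VILIhigh against KO_VILIlow, 3 in KO_VILIlow against KO_noVILI and 5 in KO_VILIhigh against KO_noVILI, since smaller variances enter by construction. Median centring turned the sign of Hpgd in KO_noVILI against WT_noVILI, to -0.0019. Of 363 recomputed values of single members, 349 kept direction and side of the threshold, 6 lost a call, 7 gained one and 1 changed sign. Most of the 85 results behind them were not called as reported. Bonferroni adjustment and the 2-fold minimum can neither add a call nor change a sign. Many of the 349 were thus fixed in advance, and their number does not measure robustness. No paired analysis was possible because the tables hold no value per library, and leaving out a replicate could not be run for the same reason. Depth per library is unknown, and Ptgds, Ptger2, Ptgir and Tbxas1 rest on low levels.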

Other observations

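Genes known to respond to cyclic AMP, the messenger of the EP2, EP4 and IP receptors, had 5 of 12 called higher and 0 lower in KO_VILIhigh against WT_VILI in the authors' deposited table, with a median log2 fold change of 0.55, where 1.13% of all genes were called higher and 0.435% lower. Those called were the nuclear receptors Nr4a1 (1.56) and Nr4a3 (1.31), the growth factor Areg (1.31), the phosphodiesterase Pde4b (0.92) and the phosphatase Dusp1 (0.90), all also inducible by other stimuli. In KO_VILIlow against WT_VILI 1 of 12 was higher, beside 0.676% of all genes, with Nr4a3 at 0.66 in the authors' deposited table. WT_VILI against WT_noVILI had 4 higher and 2 lower (Pde4a at -0.78 and Pde4b at -0.54), with Areg at 4.44 in the authors' deposited table, where 4.85% of all genes were higher and 4.23% lower. KO_noVILI against WT_noVILI had 6 lower and 0 higher, beside 1.92% and 1.45% of all genes, with Nr4a1 at -2.16 and Nr4a2 at -1.49 in the authors' deposited table. In that comparison 6 of 6 cardiac muscle markers were also lower, summing to 251 CPM in KO_noVILI and 645 CPM in WT_noVILI, and their part in the result was not tested.

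The leukotriene arm and other lipoxygenases, which use the same arachidonic acid, had 0 of 11 genes called in every deposited edgeR table of the authors. Of all genes 1.56% were called in KO_VILIhigh and 0.973% in KO_VILIlow, both against WT_VILI. The shares were 9.09% in WT_VILI and 3.36% in KO_noVILI, both against WT_noVILI. For a list of 11 genes, 0 calls is near these shares. At an unadjusted p under 0.05 there were 2 in KO_VILIhigh and 2 in KO_VILIlow against WT_VILI. The share of all genes at that threshold was not computed. In both comparisons these were Alox15 and Alox12, of the other lipoxygenases, and no gene of the leukotriene arm itself. Alox15 stood at 3.95 CPM in KO_VILIhigh, 4.06 CPM in KO_VILIlow, 1.4 CPM in WT_VILI, 1.11 CPM in KO_noVILI and 2.59 CPM in WT_noVILI. Its log2 fold change was 1.52 in KO_VILIhigh (adjusted p = 0.239) and 1.79 in KO_VILIlow (adjusted p = 0.0632), both against WT_VILI, in the authors' deposited tables. For Alox12 the deposited values of the authors were 0.91 (adjusted p = 0.276) in KO_VILIhigh and 0.65 (adjusted p = 0.794) in KO_VILIlow.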
